A study of Homo sapiens with 8 samples.

Results

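The regions described here are the places in the H9 genome where SOX2 was called by ChIP-seq and neither OCT4 nor NANOG was. H9 is a human embryonic stem cell line. Chromatin of H9 and of NT2/D1, a human embryonal carcinoma line, had been sonicated and pulled down with antibodies to SOX2, OCT4 or NANOG on magnetic beads, and IgG pull-downs from the same line served as background. There was 1 library per factor and line, and the cells carried no treatment or engineered allele according to the labels. Peaks of all 6 lists that shared at least 1 bp were joined, which gave 148059 regions. Of these, 55521 held at least 1 H9 peak and 19194 an H9 SOX2 peak. The members were chosen by the peak calls of the 3 H9 lists alone: 4890 regions held an H9 SOX2 peak and no H9 OCT4 or NANOG peak, whatever was called in NT2/D1. They made up 25.5% of the H9 SOX2 regions (95% Wilson interval 24.9 to 26.1), each with exactly 1 SOX2 peak. The other 14304 SOX2 regions held OCT4 in 1872 cases, NANOG in 4236 and both in 8196.

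SOX2 is a transcription factor with a high-mobility-group box that binds a short DNA motif in the minor groove and bends the DNA. In pluripotent cells it often binds beside OCT4 at a composite motif, and NANOG is found at many of the same enhancers. In neural progenitors SOX2 works with other partners, such as neural POU factors, at other sites. A region in which SOX2 alone was called may therefore hold SOX2 without its usual partners, or partners below the calling limit, and peak lists do not tell these apart. Weak binding in all cells and binding in a fraction of the cells cannot be told apart either.

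The sequences below show promoters in which such a region lay over a gene start, as the files' genome (hg19) was not used here and only promoters could be read. In all, 49 SOX2-alone peaks spanned a transcription start site (TSS), and 39 of their 49 genes had a promoter in the RefSeq table (build GRCh38.p14, 250 bases before to 50 after the start). RefSeq's start need not be the one that the peak spans. Shown are SRSF3, the gene under the highest-scoring such peak, and SERPINB3, SELENOP and CASC15, the 3 with a SOX motif among the 12 highest-scoring promoters read here. Capitals mark the SOX motifs ACAAAG and ACAATG or their other strands CTTTGT and CATTGT; the octamer ATGCAAAT, bound by POU factors, or its other strand ATTTGCAT, was also searched and occurs in none of the 4.
SRSF3: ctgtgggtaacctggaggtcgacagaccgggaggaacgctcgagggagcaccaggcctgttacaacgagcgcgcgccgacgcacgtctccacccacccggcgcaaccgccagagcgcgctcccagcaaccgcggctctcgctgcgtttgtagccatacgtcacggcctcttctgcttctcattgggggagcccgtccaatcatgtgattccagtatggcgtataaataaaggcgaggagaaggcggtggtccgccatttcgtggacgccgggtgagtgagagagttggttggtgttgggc
SERPINB3: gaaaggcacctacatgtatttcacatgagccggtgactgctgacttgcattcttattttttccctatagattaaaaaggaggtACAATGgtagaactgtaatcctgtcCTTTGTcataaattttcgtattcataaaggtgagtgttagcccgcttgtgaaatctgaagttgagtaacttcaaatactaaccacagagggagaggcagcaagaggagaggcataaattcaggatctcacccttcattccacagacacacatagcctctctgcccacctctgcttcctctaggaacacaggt
SELENOP: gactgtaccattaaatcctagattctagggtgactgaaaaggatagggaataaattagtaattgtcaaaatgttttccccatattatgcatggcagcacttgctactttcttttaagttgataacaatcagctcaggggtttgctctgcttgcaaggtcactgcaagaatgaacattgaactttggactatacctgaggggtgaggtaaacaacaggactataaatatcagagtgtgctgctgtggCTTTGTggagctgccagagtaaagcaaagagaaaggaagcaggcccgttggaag
CASC15: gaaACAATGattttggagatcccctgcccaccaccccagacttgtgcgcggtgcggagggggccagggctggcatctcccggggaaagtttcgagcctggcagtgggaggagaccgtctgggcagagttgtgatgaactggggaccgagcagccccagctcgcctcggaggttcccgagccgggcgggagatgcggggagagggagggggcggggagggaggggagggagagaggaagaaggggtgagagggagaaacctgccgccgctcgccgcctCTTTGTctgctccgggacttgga
The promoters lie at chr6:36594112-36594411 (plus strand), chr18:63661844-63662143 (minus), chr5:42811843-42812142 (minus) and chr6:21666163-21666462 (plus). SRSF3, which encodes a splicing factor, holds neither motif in this window. SERPINB3, a protease inhibitor gene, holds ACAATG and CTTTGT, as does CASC15, a long non-coding RNA gene, and SELENOP, the selenoprotein P gene, holds CTTTGT.

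A SOX motif was found in 15 of the 39 promoters spanned by a SOX2-alone peak (38.5%, 95% interval 24.9 to 54.1), against 24.6% of all 27305 promoters in the table. Promoters spanned by regions with SOX2 and OCT4 had it in 34.0% of 47, those with SOX2 and NANOG in 29.8% of 57 and those with all 3 factors in 28.7% of 157. In promoters spanned by OCT4 alone or NANOG alone it was in 18.2% of 285 and 21.6% of 393. The octamer was in 1 of the 39 (2.56%), and in 1.80% of all promoters. The median GC content was 57.7% in the 39 promoters and 58.3% in all, so base composition was close. No match of the SOX motif overlapped one of the octamer in the 39 promoters. These are letter matches, and the interval of the 39 promoters covers counting error only.

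The members were mostly weak calls, and this came with the choice of members rather than being a separate result. The median score of a SOX2-alone peak was 36.1 (lowest 30), where the score is the negative log10 of the peak caller's p-value multiplied by 10, and that of the other SOX2 peaks was 64.5. The median peak had 33 tags and a fold over background of 4.05, against 53 tags and a fold of 5.86 in the other SOX2 peaks. The median peak width was 554 bp, against 660 bp. A false discovery rate (FDR) of at most 5% was met by 471 members (9.63%), while 46.2% of all H9 SOX2 peaks met it. The SOX2-alone share was 59.3% in the lowest decile of the SOX2 list by score, 29.5% in the fifth and 3.67% in the eighth. The ninth decile held 14 members and the highest held 1. At the lower limit of the list, 585 members and 375 other SOX2 peaks had scores from 30 to 31.

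**Figure D1:**
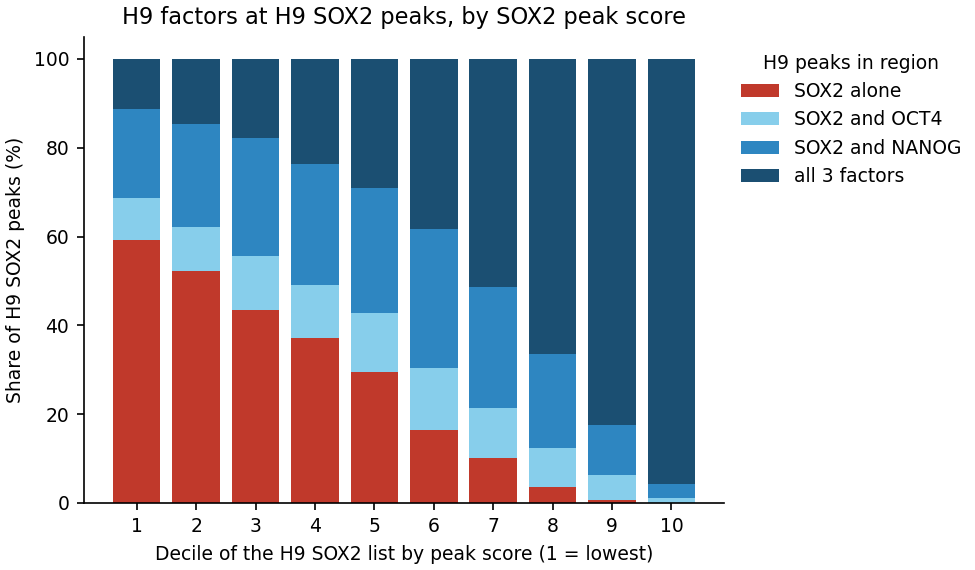
Share of H9 SOX2 peaks (y axis, %) by which other H9 factors were called in the same region, for each decile of the H9 SOX2 list by score (x axis, lowest to highest). SOX2-alone peaks made up 59.3% of the lowest decile and 3.67% of the eighth.

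The limit between members and other SOX2 regions was 1 shared base. Of the members, 4 had an OCT4 or NANOG peak ending within 10 bp and 51 within 100 bp, and the smallest gap was 1 bp. Just outside the rule, 4 SOX2 peaks shared at most 10 bp with an OCT4 or NANOG peak and 43 at most 100 bp, while 5 shared no base and were joined through another peak. The median score was 35.3 for the members within 100 bp and 36.2 for the SOX2 peaks that shared 1 to 100 bp. Most members lay well away from the partners. The nearest H9 OCT4 or NANOG peak was at a median of 17.1 kb, 4.87% of members had one within 500 bp (4.30 to 5.51) and 23.9% within 5 kb. A region with all 3 factors lay within 50 kb of 29.6% of members.

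The 15 highest-scoring members lay near genes of many kinds. One lay 721 bp from the TSS of RTBDN, a retinal riboflavin-binding protein gene, with 106 tags and a fold of 11.7 (chromosome 19, 12946951 to 12947762), and an OCT4 peak lay 0.729 kb away. The EPHA2 region had 66 tags and a fold of 9.75, and an OCT4 peak lay 2.81 kb from it. EPHA2 encodes an ephrin receptor. A region 113 kb from RUNX1, a blood cell transcription factor gene, had 57 tags and a fold of 9.61. Regions nearest to PPFIA2, SLC44A3, ADGRL3, GC, RERGL, TRAPPC9 and SPATA31D5P had folds of 5.97 to 9.72 and 50 to 82 tags. These 7 lay 98.0 to 1253 kb from the nearest TSS, and the ADGRL3 region had no OCT4 or NANOG peak within 145 kb. Regions near RPS9, a ribosomal protein gene, ZNF717, a zinc finger gene, and GAPDH, a glycolytic enzyme gene, differed in shape: they were 1810, 3564 and 1970 bp wide and had folds of 4.36, 4.20 and 3.78. Of the 15, none held an NT2/D1 SOX2 peak, and 2 held any NT2/D1 peak, OCT4 at RTBDN and NANOG at RPS9. Over all members these shares were 3.54% and 11.2%, so 15 regions are too few to set these counts apart.

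Wide peaks of low fold formed a small part of the members. Those wider than 1500 bp numbered 85 (1.74%), with a median fold of 2.83 and 214 tags. Among the other SOX2 peaks 2.70% were as wide, with a median fold of 6.27. None of the 85 lay in a region with an NT2/D1 SOX2 peak (0 of 85, interval up to 4.32%), against 36.6% of the other SOX2 peaks of that width. The share of all members, 3.54%, lies inside that interval, so the count does not set the wide members apart from the others. Any NT2/D1 peak was in 7 of the 85 (8.2%), against 11.2% of all members. Of the 85, 48 lay within 100 kb of another, and 20 were on chromosome 15. The widest covered 57921 bp near BAGE2 on chromosome 21, with 6916 tags and a fold of 3.15. Others were nearest to LINC01138 (12414 and 13167 bp), FANK1 (10327 bp) and POTEB3 (10123 bp). BAGE2 and POTEB3 belong to multigene families with near-identical copies. Whether reads are placed with certainty at these or the other wide peaks was not tested.

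**Figure D2:**
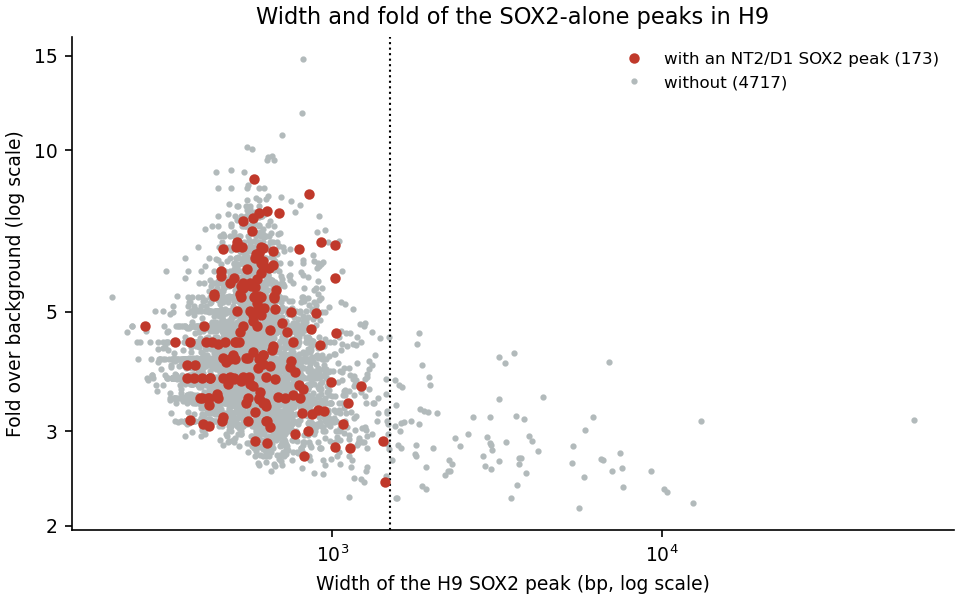
Width of each SOX2-alone peak in H9 (x axis, bp, log scale) against its fold over background (y axis, log scale). Red points are the 173 members whose region held an NT2/D1 SOX2 peak, grey points the other members, and the dotted line marks 1500 bp, beyond which 85 peaks lay and no red point. The interval of 0 of 85 reaches 4.32% and covers the 3.54% of all members.

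Few of the SOX2-alone regions carried a peak in the carcinoma line. The NT2/D1 lists had no part in the choice of members, apart from joining peaks. An NT2/D1 SOX2 peak was in 173 members (3.54%, 95% interval 3.06 to 4.09), against 20.9% of SOX2 regions with OCT4 or NANOG (20.3 to 21.6), a difference of -17.4 percentage points (Newcombe interval -18.2 to -16.5). Over all H9 regions the share was 8.48%. An NT2/D1 OCT4 peak was in 404 members (8.26%, 7.52 to 9.07), against 19.4% of all H9 regions, and an NT2/D1 NANOG peak in 93 (1.90%, 1.56 to 2.32), against 7.00%. Any NT2/D1 peak was in 547 members (11.2%, 10.3 to 12.1), against 24.5%. In NT2/D1 the source name of the library titled OCT4 reads NANOG and the reverse, and by source name the OCT4 share would be 1.90% and the NANOG share 8.26%. Unique tags numbered 54046559 to 77649240 per H9 library and 10218752 to 23160564 per NT2/D1 library, while the H9 lists held 19349 to 33895 peaks and the NT2/D1 lists 34208 to 46169. The part of depth in the shared calls was not tested, and a peak not called in NT2/D1 is not shown to be absent.

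Among SOX2 peaks of like score the difference was smaller. The members' share of 3.54% stood against 9.95% for SOX2 peaks with OCT4 or NANOG weighted to the members' score deciles. Unweighted, and counted by region, it was 20.9%. Width, tags and fold go with score and were not separated from it. The members' share was lower in all 10 deciles, and the interval of the difference lay below 0 in 9 of them. The exception was the highest decile, with its single member. In the lowest decile the shares were 2.97% of 1146 members (34 regions) and 7.61% of the other peaks. In the sixth decile they were 3.75% and 14.6%, and in the eighth 11.3% of 71 members and 20.9% of the other peaks. Among peaks of over 500 to 750 bp, which held 53.9% of the members, the shares were 3.87% in members and 17.6% in other SOX2 peaks.

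**Figure D3:**
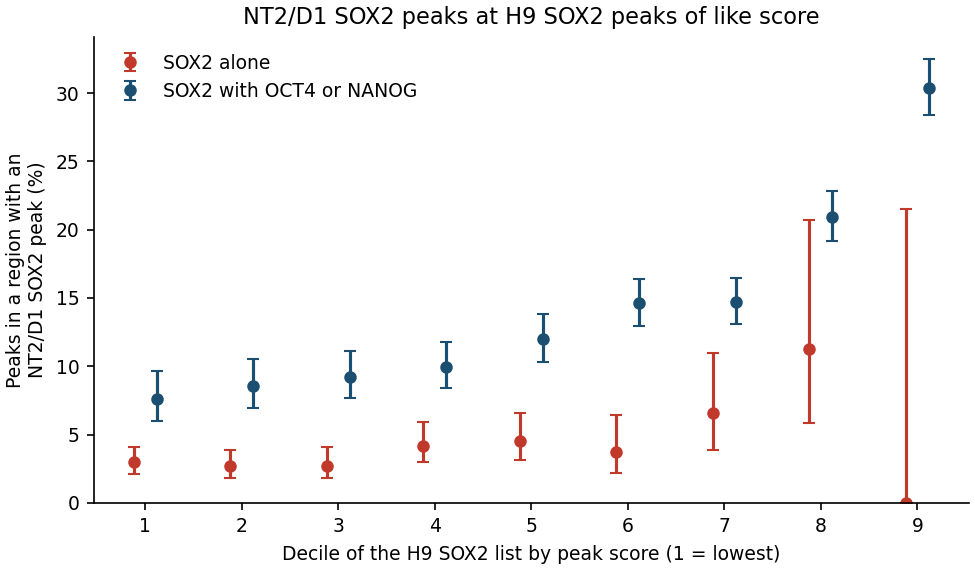
Share of H9 SOX2 peaks whose region held an NT2/D1 SOX2 peak (y axis, %) by decile of H9 SOX2 score (x axis, lowest to ninth), for SOX2 alone (red) and SOX2 with OCT4 or NANOG (blue), with 95% Wilson intervals. The red share ran from 2.67% to 11.3% in the first 8 deciles and lay under the blue share in each.

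Against regions in which another factor was alone, the shares were much closer. NT2/D1 SOX2 peaks were in 3.54% of SOX2-alone regions, 2.71% of OCT4-alone regions and 4.68% of NANOG-alone regions. The difference was 0.828 points from OCT4 alone (0.274 to 1.44) and -1.14 points from NANOG alone (-1.72 to -0.511), so over all chromosomes the NT2/D1 SOX2 list met NANOG-alone regions more often than SOX2-alone ones. Per covered megabase of H9 peak, SOX2-alone peaks held 45.4 NT2/D1 SOX2 summits, OCT4-alone peaks 46.8 and NANOG-alone peaks 57.4, while regions with all 3 factors held 258. The SOX2-alone cover includes the 85 peaks wider than 1500 bp, which held no NT2/D1 SOX2 peak. The small gap between SOX2 alone and OCT4 alone therefore gives no order of the 2 classes. The whole NT2/D1 SOX2 list has 14.2 summits per megabase of the effective genome size. For any NT2/D1 peak the share was 11.2% in SOX2-alone regions, 14.2% in OCT4-alone and 15.8% in NANOG-alone regions, and it was lowest in SOX2-alone regions among the 7 H9 classes. That order rests on the whole SOX2 list: the members' share was 18.9% with the upper 50% of SOX2 peaks by score and 19.7% at an FDR of at most 5%, where the OCT4 and NANOG lists kept all their peaks.

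**Figure D4:**
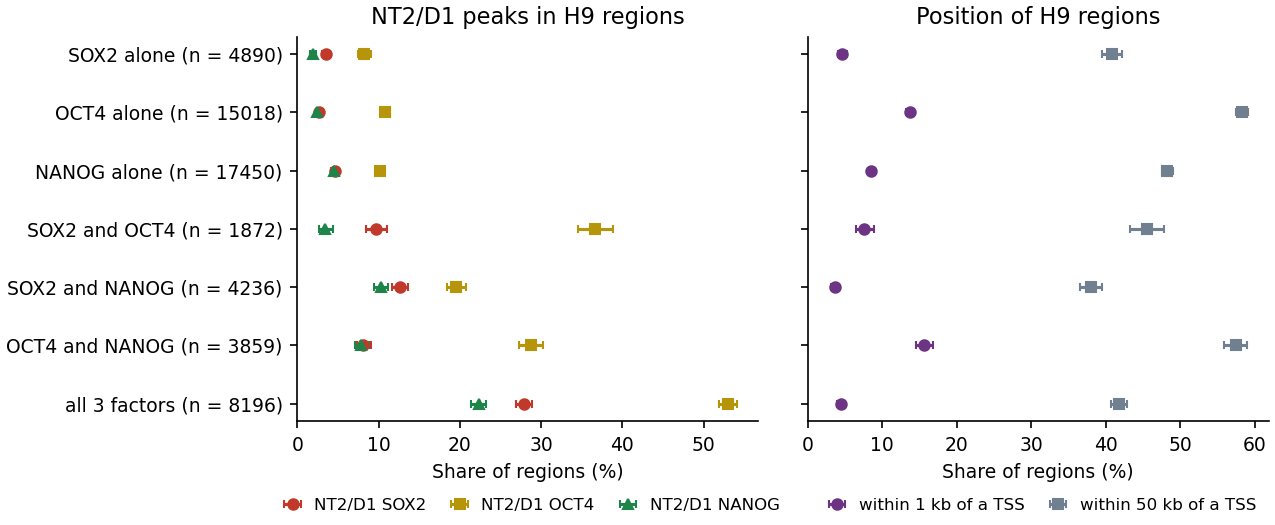
Left, share of H9 regions of each class (rows, with n) that held an NT2/D1 SOX2, OCT4 or NANOG peak; right, share within 1 kb or 50 kb of a TSS (x axes, %; bars are 95% Wilson intervals). SOX2-alone regions had 3.54% with an NT2/D1 SOX2 peak and 4.62% within 1 kb, while regions with all 3 factors had 27.8% and 4.42%.

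The shared calls were unevenly placed over the chromosomes. On chromosomes 1, 12 and 21, set apart with their high shares known, 8.91% of 707 members held an NT2/D1 SOX2 peak (7.03 to 11.2), and on the others 2.63% of 4183 (2.19 to 3.16). In SOX2 regions with OCT4 or NANOG the shares were 27.7% and 19.8%, so the members' share was lower on both sets of chromosomes. On chromosomes 1, 12 and 21 the share was 8.91% in SOX2-alone, 7.93% in NANOG-alone (6.94 to 9.05) and 6.08% in OCT4-alone regions. These chromosomes were picked with the members' high shares known, so the order of the classes there is not a result. The intervals of SOX2 alone and NANOG alone also overlap. On the other chromosomes the share was 2.13% in OCT4-alone regions, whose interval (1.89 to 2.40) overlaps that of the members, and 4.13% in NANOG-alone regions. Chromosome 21 had 7 of 58 members with an NT2/D1 SOX2 peak and chromosome 1 had 41 of 415, whereas chromosome 17 had 0 of 118 and chromosome X 1 of 192.

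Where both lines had a SOX2 peak, the peaks met less exactly in the members. The H9 and NT2/D1 SOX2 summits were a median of 79 bp apart in the 173 members, and 27 bp apart in 2996 other SOX2 regions. The summits lay within 100 bp in 53.8% of the members (46.3 to 61.0) and in 84.4% of the others (83.1 to 85.7). The NT2/D1 SOX2 peak had a median of 14 tags and a median score percentile of 59.3 within its own list in the members, against 20 tags and 88.8 in the others. The H9 score percentile also differed, with a median of 30.6 in the members and 83.0 in the others. The part of peak strength in the summit distance was not tested.

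In 88 members SOX2 was the only factor called in either line. By the lower of the 2 within-list score percentiles the first of them lay 1.84 kb from the TSS of RUNX1 (chromosome 21, 36423434 to 36424011). Its peak held 49 tags in H9 (fold 8.85) and 27 in NT2/D1 (fold 4.40). It was the second member near RUNX1, at another site than the one above. The HNRNPU region, 10.4 kb from the TSS of this nuclear ribonucleoprotein gene, had 52 tags (fold 5.77) in H9 and 26 tags (fold 5.75) in NT2/D1. LBP, a lipopolysaccharide-binding protein gene, had a region with 74 tags (fold 6.55) in H9 and 31 tags (fold 7.93) in NT2/D1. Among the others of the first 10 were regions nearest to SLC30A10, ATP6V0A4, HSP90AB2P, MTTP, TMTC2 and MYCNOS, with H9 folds of 3.10 to 7.72 and NT2/D1 folds of 5.03 to 8.33. MYCNOS is the antisense partner of MYCN, and this region lay 7.74 kb from the TSS of MYCN, with 59 tags in H9 and 14 in NT2/D1.

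Of the other members with an NT2/D1 peak, 312 held OCT4 alone there, 40 NANOG alone, and 16 all 3 factors. The strongest of these 16 by its lowest NT2/D1 percentile lay 209 kb from EBF2, a transcription factor gene (chromosome 8, 25692534 to 25693148). There the NT2/D1 folds were 12.3 (SOX2), 21.2 (OCT4) and 10.6 (NANOG), and in H9 only a SOX2 peak with 38 tags, a fold of 4.16 and an FDR of 13.9%. The region near LINC00494 had NT2/D1 folds of 15.6, 17.8 and 9.07, against an H9 SOX2 fold of 5.40 with 27 tags. Another was 35.7 kb from LMX1A, a roof plate and dopaminergic neuron regulator, with NT2/D1 folds of 6.04, 8.91 and 6.26 and an H9 fold of 5.03. The NT2/D1 OCT4 peak of the LMX1A region was weak, with 6 tags and a score percentile of 24.8. The H9 FDR was 22.2% in the LINC00494 region and 23.3% in the LMX1A region. These 3 regions were picked after their values were seen. Folds of the lines are not on the same scale.

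SOX2-alone regions lay farther from genes than regions with OCT4 or NANOG alone, and about where the other SOX2 regions lay. Within 1 kb of a TSS were 226 of them (4.62%, 4.07 to 5.25), against 4.60% of SOX2 regions with OCT4 or NANOG, a difference of 0.0216 points (-0.637 to 0.729). That pooled value joins classes on either side: 7.59% of regions with SOX2 and OCT4 lay within 1 kb (difference -2.96 points, -4.37 to -1.69) and 3.64% of those with SOX2 and NANOG (0.986 points, 0.165 to 1.80). OCT4-alone regions had 13.7% and NANOG-alone regions 8.57% within 1 kb, and over all H9 regions it was 9.08%. Within 50 kb lay 40.8% of SOX2-alone regions (39.5 to 42.2), against 41.2% of the other SOX2 regions, 58.3% of OCT4-alone regions, 48.3% of NANOG-alone regions and 49.1% of all H9 regions. The median distance was 75.6 kb for SOX2 alone, 33.3 kb for OCT4 alone and 54.2 kb for NANOG alone, and 10.6% of SOX2-alone regions lay beyond 500 kb, against 5.39% and 7.00%. By chromosome, the members' share of the SOX2 peaks ran from 20.3% on chromosome 11 (17.7 to 23.2) and 20.5% on chromosome 10 to 32.8% on chromosome 19 (26.7 to 39.6).

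The 10 highest members within 1 kb of a TSS were nearest to RTBDN, SRSF3, XRN2, FANK1, SNORD57, CTNNAL1, SERPINB3, TFAP2A, SNORD99 and SNORA24. At SRSF3, whose promoter is printed above, the peak had 103 tags and a fold of 3.73 (hg19, chromosome 6, 36561986 to 36563536). At SERPINB3 it had 51 tags and a fold of 5.01, and at XRN2, an exoribonuclease gene, 45 tags and a fold of 5.63. TFAP2A, which encodes a transcription factor of trophectoderm and neural crest, had 43 tags and a fold of 4.74 at a TSS, and an OCT4 peak lay 0.143 kb from that peak. SNORD57, SNORD99 and SNORA24 are small nucleolar RNA genes, and their peaks were 1322, 1334 and 2439 bp wide with folds of 2.81 to 3.99. Among other members over a TSS, named after their values were seen, were RORB, an orphan nuclear receptor gene of retina and cortex (54 tags, fold 4.36), and SSTR1, a somatostatin receptor gene (104 tags, fold 2.88). An OCT4 peak lay 0.181 kb from the RORB peak, and a NANOG peak 0.715 kb from the SSTR1 peak.

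Genes of 16 lists were examined for a SOX2-alone region within 50 kb. Over all 19452 genes named in the peak lists, 2253 had one (11.6%), and 33.6% had any H9 SOX2 peak. The lists were not matched for the space around the genes. Fold alone does not show how near the calling limit a region lay, and the median FDR of the members was 18.8%. The core pluripotency list had 13 of 32 genes (40.6%, 25.5 to 57.7) with a SOX2-alone region and 28 with any SOX2 peak. The 13 genes shared 17 distinct regions, of which 1 held an NT2/D1 SOX2 peak and 4 any NT2/D1 peak. Over all members these shares were 3.54% and 11.2%. The folds of the 17 regions were low, from 2.53 to 5.25 with a median of 3.46.

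At 12 of these 13 genes, all but DPPA2, a SOX2 peak with OCT4 or NANOG of higher fold also lay within 50 kb. DPPA2 and DPPA4, neighbouring genes of early embryos, shared a region with 123 tags and a fold of 2.94 (chromosome 3, 109043808 to 109045084). DPPA2 had 3 SOX2-alone regions and no other SOX2 peak within 50 kb, and the strongest SOX2 peak of DPPA4 had a fold of 9.61. LEFTY2, which encodes a Nodal antagonist, had a SOX2-alone region 5.61 kb from its TSS with a fold of 4.09, against 16.7 in its strongest SOX2 peak. LIN28B, which encodes an inhibitor of let-7 maturation, had one 14.7 kb from its TSS with a fold of 3.99, against 13.9. NANOG itself, named after its values were seen, had one 1.90 kb from its TSS with 39 tags and a fold of 3.48, against 12.9 in its strongest SOX2 peak. The SOX2-alone region of NANOG had an FDR of 21.7%. At TERF1, also named afterwards, 4 of 6 SOX2 peaks were alone, with a fold of 4.42 in the highest-scoring of these and 24.1 in the strongest SOX2 peak.

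Of 32 neuroectoderm and forebrain regulators, 29 had an H9 SOX2 peak within 50 kb and 5 a SOX2-alone region (15.6%, 6.86 to 31.8), against 33.6% and 11.6% of all genes. Among genes with any SOX2 peak, a SOX2-alone region was near 17.2% of these regulators, 46.4% of the core pluripotency genes and 34.5% of all genes. The first 2 shares rest on 29 and 28 genes, and no interval was computed for such shares in any list. The highest-scoring SOX2-alone region of each of the 5 lay 0.087 to 0.783 kb from an OCT4 or NANOG peak, while 8.24% of all members had one within 1 kb. The PAX6 region, 627 bp from the TSS of this eye and forebrain regulator, had 41 tags and a fold of 4.09, and an OCT4 or NANOG peak lay 0.456 kb away. The NKX6-1 region had a fold of 3.82 and the nearest such peak 0.087 kb away, while those of LHX5 and PAX7 had folds of 3.86 and 3.19 and a partner 0.689 and 0.783 kb away. The LHX5 region also held an NT2/D1 SOX2 peak. With members that had an OCT4 or NANOG peak within 500 bp left out, 3 of the 5 genes remained in the count, against 11 of the 13 core pluripotency genes.

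In the SOX family 2 of 18 genes had a SOX2-alone region, SOX21 (2.03 kb from its TSS, fold 4.40) and SOX5 (22.2 kb, fold 4.09). Both were weak calls, with 19 and 23 tags and FDRs of 24.35% and 26.9%. The strongest SOX2 peaks near SOX21 and SOX5 had folds of 17.86 and 11.45. In the POU family besides POU5F1 such genes were 2 of 13, POU2F1 with 59 tags and a fold of 6.49, and POU4F1 with a fold of 3.69. POU2F1 encodes the widely expressed factor OCT1, and this was its only SOX2 peak within 50 kb. The mesendoderm list had 4 of 21 (19.0%), namely LHX1, GATA4, GSC and GATA6 with folds of 3.77 to 4.71 and FDRs of 13.76% to 27.86%. The foregut, ear and eye list had 4 of 17 (23.5%): the MAF region had a fold of 4.70, PAX2 4.25, MITF 4.40 and BARX1 3.60. MAF, PAX2 and BARX1 had no SOX2 peak of another class within 50 kb. An H9 OCT4 or NANOG peak still lay 0.098 kb from the BARX1 region, 0.314 kb from PAX2 and 2.24 kb from MAF. With members that had such a peak within 500 bp left out, 2 of the 4 genes remained. Among genes with any SOX2 peak, the SOX2-alone share was 44.4% in this list, 28.6% in the mesendoderm list and 34.5% over all genes.

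Signalling genes had SOX2-alone regions at 12.5% to 28.6% of each list. Any H9 SOX2 peak was near 51.6% to 76.2% of each list, against 33.6% of all genes. Among genes with any SOX2 peak, a SOX2-alone region was near 22.2% (hedgehog) to 37.5% (FGF and ERK), against 34.5% of all such genes. For FGF and ERK genes, 6 of 21 had such a region (28.6%, 13.8 to 49.96), led by DUSP4, then FGFR2, FGF2 and ETV1. DUSP4, an ERK phosphatase gene, had a SOX2-alone peak over its TSS (41 tags, fold 3.28), with an OCT4 or NANOG peak 0.281 kb away. For WNT genes, 5 of 26 had a SOX2-alone region, and the receptor gene FZD3 had the strongest, 19.3 kb from its TSS with 82 tags and a fold of 6.37. DKK1, a secreted WNT inhibitor gene, had a fold of 5.06, FZD5 3.82 and LRP5, a WNT co-receptor gene, 2.85, and the LRP5 region also held an NT2/D1 SOX2 peak. For Notch and neural bHLH genes they were 5 of 25, led by NEUROD1, a neuronal differentiation factor gene, with 38 tags and a fold of 7.14 at 2.63 kb. JAG1, a Notch ligand gene, had a fold of 4.67, NOTCH2 3.99 and MIB1 3.77. For Nodal, TGF-beta and BMP genes they were 5 of 31, led by TGFB2 (fold 4.09), BMP4 (2.94), BMP2 (2.51) and ACVR2B (3.60). For hedgehog genes they were 2 of 16: SHH, the ligand gene, had 2 SOX2-alone regions, the higher-scoring with a fold of 4.03, and BOC, a co-receptor gene, had 1 with a fold of 3.62. Neither had another SOX2 peak within 50 kb.

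Axon guidance genes had such regions in 8 of 31 cases (25.8%, 13.7 to 43.2). Any H9 SOX2 peak was near 67.7% of the list. Among those genes a SOX2-alone region was near 38.1%, against 34.5% of all genes with a SOX2 peak. SEMA3A, a repulsive guidance ligand gene, had one 1.99 kb from its TSS with a fold of 6.07, beside a stronger SOX2 peak of fold 20.9. SLIT1 had a fold of 5.09, ROBO1, which encodes a SLIT receptor, 4.78, and SEMA3C 3.12 at 212 bp from its TSS. Neural adhesion and synapse genes had them in 4 of 31 (12.9%), with folds of 4.71 for CNTN4, 3.27 for CDH11 and 3.14 for SLITRK1. The intervals of the 3 control lists all covered the 11.6% of all genes. So did those of all other lists except core pluripotency, FGF and ERK, and axon guidance. Hepatocyte genes had 2 of 18 (3.10% to 32.8%), with a fold of 4.89 at CPS1 and 3.46 at TTR. Muscle and immune genes had 1 of 18 each (0.988% to 25.8%), MYL2 with a fold of 3.25 and LYZ with 3.72.

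**Figure D5:**
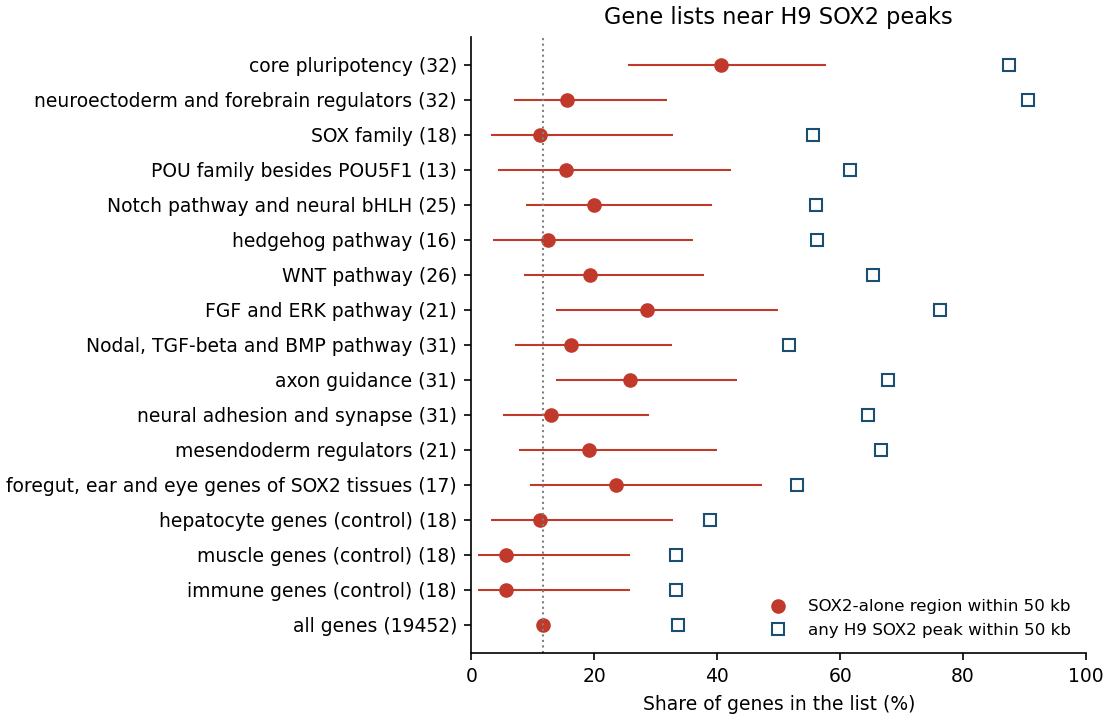
Share of genes in each list (rows, with the number of genes) that had a SOX2-alone region (red, with 95% Wilson interval) or any H9 SOX2 peak (blue squares) within 50 kb of the TSS (x axis, %). The dotted line marks the 11.6% of all genes; core pluripotency stood at 40.6% and neuroectoderm and forebrain regulators at 15.6%.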

How the data were processed

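SOX2, OCT4 and NANOG ChIP libraries of H9 and NT2/D1 were analysed through 6 deposited peak lists, called by the authors with MACS on each library against IgG at a p-value of 0.001, per the file headers. The 3 H9 lists share an IgG library, while the NT2/D1 OCT4 list was called against 6479071 unique IgG tags and the NT2/D1 SOX2 and NANOG lists against 2937004, and MACS ran with a band width of 2000 for H9 and of 200 for NT2/D1, per the file headers. Coordinates are hg19 according to the submitters' processing notes; no source used here names the aligner. Each peak's deposited count is its number of ChIP tags, unnormalized, and the deposited fold is the authors' ratio over local background. The deposited FDR is in percent. The deposited score column had lost its name; its lowest value of 30 fits the p-value limit if it is 10 times −log10 of p, and it was read so. These values are the authors' and serve only within a list.

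Regions, shares and 95% Wilson and Newcombe intervals were computed in Python 3.11.15 with pandas 2.3.3 and statsmodels 0.14.6, and were tested on simulated data. Intervals cover counting error only. With 1 library per factor and line no test over samples was possible. Genes and distances are those the submitters added on each side of a peak, and 23834 of 25014 identifiers matched RefSeq symbols. The genes named are those nearest to the 15 highest-scoring members, to the 10 highest members with SOX2 alone in both lines, to the 10 highest members within 1 kb of a TSS, and up to 4 per gene list by score; exceptions are marked, and some genes that the rule names are not reported here. The members and lists were chosen with earlier results of these data known. The alternatives concerned how peaks were joined and which peaks, widths and chromosomes entered. The IgG libraries were not analysed here on their own.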

Additional observations from a re-analysis of the deposited data

How the results depend on the processing

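The SOX2-alone share of H9 SOX2 regions, 25.5% as reported, moved with the strength of the calls. It was 6.27% with the upper 50% of SOX2 peaks by score, 5.30% at an FDR of at most 5%, 33.3% with OCT4 and NANOG lists at the length of the SOX2 list and 24.4% with peaks within 500 bp joined. In the same order, the share with an NT2/D1 SOX2 peak was 5.47%, 5.94%, 4.72% and 4.42%, and that with any NT2/D1 peak 18.9%, 19.7%, 14.4% and 13.8%. Without chromosomes 1, 12 and 21 they were 2.63% and 9.68%. The share within 50 kb of a TSS was 39.3% both in the upper 50% and at the FDR limit, and that within 1 kb stayed inside its interval under all 6 alternatives. The difference in NT2/D1 SOX2 share between SOX2-alone and other SOX2 regions ran from -22.3 to -16.5 points over these settings and -17.0 points with the SOX2 peak's own interval, chosen after seeing the data. Joining the H9 lists alone, or keeping autosomes and X with the widest 1% of each list left out, moved none of the 5 shares beyond its interval. The FDR and score limits keep fewer and stronger members by construction. The median SOX2 peak held 46 tags in the H9 list, against 11 for NT2/D1; what depth adds to these shares was not tested. No paired analysis was possible because each factor and line had 1 library.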

Other observations

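Some genes were nearest to several SOX2-alone regions, and 20 had 8 or more. SOX2 alone made up 25.5% of all H9 SOX2 regions, but genes picked for high counts cannot be set against that share. LINC01138 had the most, 11 of 17 SOX2 peaks. The genes named next are examples, and others with equal counts, such as IGFBP7 and OLFM4, belong to other gene groups. ADGRB3, a brain adhesion receptor gene, was nearest to 9 (of 19 SOX2 peaks), over 1391 kb. ALCAM and PCDH10, cell adhesion genes, were nearest to 9 of 22 and 9 of 18, and EFNA5, a neural ligand gene, to 8 of 21. These members were far from the genes, at a median of 339 kb from the TSS for ADGRB3, 665 kb for ALCAM, 1018 kb for PCDH10 and 286 kb for EFNA5. The median folds of the members near these genes were 3.69 to 4.71. None of the members near the 20 genes held an NT2/D1 SOX2 peak, against 3.54% of all members and 2.63% of those outside chromosomes 1, 12 and 21. Many of the 20 genes lie on chromosomes 4, 5 and 6, where the members' shares were 2.02%, 1.52% and 2.35%. The part of chromosome in this count was not tested, and no interval was computed for it. At POTEB3 and NBEAP1 on chromosome 15, 10 of 12 and 9 of 9 SOX2 peaks were alone, with median folds of 2.67 and 2.81 and spans of 94.2 and 151 kb. These genes were chosen after their values were seen.

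Small nucleolar RNA genes were nearest to 9 of the 225 SOX2-alone peaks within 1 kb of a TSS (95% interval 2.12% to 7.43%). The share was 3.52% with SOX2 and OCT4, 1.31% with SOX2 and NANOG, 1.10% with all 3 factors, 0.292% with OCT4 alone and 0.201% with NANOG alone, and these genes were 0.864% of all genes in the lists. The pattern was noticed in the data, and its cause was not tested.

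By distance to the nearest H9 OCT4 or NANOG peak, the intervals of the members' NT2/D1 shares overlapped. The NT2/D1 SOX2 share was 3.03% of 923 members beyond 50 kb (2.11 to 4.35) and 3.78% of 238 within 500 bp (2.00 to 7.03). Any NT2/D1 peak was in 9.10% of those beyond 50 kb (7.41 to 11.1) and 13.0% of those within 500 bp (9.33 to 17.9).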
